A study of Homo sapiens with 12 samples.

Results

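The enzymes that make serine and pass its carbon to folate were followed in C4.2B cells given an AKT inhibitor, an EZH2 inhibitor or both. They were chosen by name in the count table: PHGDH, PSAT1, PSPH, SHMT1, SHMT2, MTHFD1, MTHFD2, MTHFD1L and ALDH1L2, which make 9 of its 58735 genes. All 9 passed the filter on low counts, as did 16646 genes in all. C4.2B is a human prostate cancer line that was derived from LNCaP cells and grows without androgens. The DMSO arm received vehicle, the IPATA arm the AKT inhibitor ipatasertib at 0.25 μM, the TAZ arm the EZH2 inhibitor tazemetostat at 1 μM, and the COMBO arm both. TAZ and COMBO cells had 6 days of tazemetostat before ipatasertib or vehicle was added. Every arm, DMSO included, was then kept for 24 hours in medium with 10% charcoal-stripped serum, which is poor in androgens, before polyA RNA was collected. Each arm had 3 libraries, named A, B and C, from plates seeded in triplicate with cells of a single line. P-values therefore measure the spread between such plates, which may be technical, and the study's question for these libraries was what both inhibitors do to transcription before the cells die.

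Cells make serine from the glycolytic intermediate 3-phosphoglycerate in a short chain of reactions run by PHGDH, PSAT1 and PSPH. Serine hydroxymethyltransferases then move a carbon from serine to tetrahydrofolate, SHMT2 in mitochondria and SHMT1 in the cytosol. In mitochondria MTHFD2 and MTHFD1L oxidize that folate-bound carbon to formate, and ALDH1L2 oxidizes it to carbon dioxide. In the cytosol the single protein MTHFD1 interconverts the same folates, for purine and thymidylate synthesis. The transcription factor ATF4, which is translated more when amino acids are short or the endoplasmic reticulum is stressed, is a known activator of the serine and mitochondrial folate genes, and MYC is another.

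Total counts ranged from 14133755 to 22276417 per library, and libraries of the same arm differed by more than sampling noise. The prostate markers KLK3, KLK2, HOXB13, KRT8 and KRT18 were all present in DMSO, at 103 CPM or more on average (CPM, counts put on a common library total with TMM scaling). Of these 5 markers, 4 were higher in COMBO than in DMSO and HOXB13 was lower. Among all genes tested, 38.0% were higher and 35.2% lower in this comparison. KLK3 went from 1372 CPM in DMSO to 3941 CPM in COMBO. Markers of other cell types were near 0, with KRT5 at 0 in all libraries and COL1A2, PECAM1, TP63, PTPRC and CD68 under 1 CPM in every library. COL1A1 and VWF were the exceptions. COL1A1 averaged 5.67 CPM in DMSO, 5.05 in IPATA, 16.8 in TAZ and 11.9 in COMBO, and VWF 2.58, 3.88, 5.96 and 6.06 CPM in the same arms. Their part in the results was not tested. The share of counts on mitochondrially encoded genes was 2.37% to 3.36% in DMSO, 3.93% to 4.29% in IPATA, 4.35% to 5.31% in TAZ and 5.14% to 5.64% in COMBO. It moved with treatment, and its part in the results was not tested. In bulk RNA, fewer cells expressing a gene and less RNA per cell cannot be told apart.

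The 9 enzymes together took 0.272% to 0.291% of all counts in DMSO and 0.238% to 0.245% in IPATA. Their share was 0.115% to 0.121% in TAZ and 0.212% to 0.215% in COMBO. Each drug alone lowered most of the enzymes, TAZ the most, but adding ipatasertib to tazemetostat did not lower them all further. It raised the serine synthesis and mitochondrial enzymes above their TAZ level and lowered both cytosolic enzymes.

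Upstream sequence of the enzymes was examined as well. Of the 9 enzymes, 6 had an entry among the RefSeq promoters (GRCh38.p14), and the 250 bases before the first listed start were searched on both strands. PSPH, SHMT2 and ALDH1L2 had no entry. The search was for CACGTG, the E-box that MYC and related factors can bind, and for TGATGNAAN, the C/EBP-ATF response element that ATF4 can bind. The window before PSAT1 lies at chr9:78296875-78297124 (+) and that before SHMT1 is shown for chr17:18363564-18363800 (−), the stretch free of annotated exons. Both are shown as an enzyme that was higher and an enzyme that was lower in COMBO than in TAZ. The 30-base stretches that hold a match, in capitals, come from MTHFD1 at chr14:64388323-64388352 (+) and from MTHFD1L at chr6:150866320-150866349 (+) and chr6:150866346-150866375 (+). The MTHFD1 stretch lies inside annotated exons. The MTHFD1L stretches lie outside the longest exon-free stretch of their window.
PSAT1 upstream: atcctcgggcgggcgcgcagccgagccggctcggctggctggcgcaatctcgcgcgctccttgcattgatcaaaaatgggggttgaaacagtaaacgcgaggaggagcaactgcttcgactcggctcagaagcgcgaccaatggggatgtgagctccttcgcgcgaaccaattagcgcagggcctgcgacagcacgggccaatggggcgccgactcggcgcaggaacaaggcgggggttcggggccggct
SHMT1 upstream: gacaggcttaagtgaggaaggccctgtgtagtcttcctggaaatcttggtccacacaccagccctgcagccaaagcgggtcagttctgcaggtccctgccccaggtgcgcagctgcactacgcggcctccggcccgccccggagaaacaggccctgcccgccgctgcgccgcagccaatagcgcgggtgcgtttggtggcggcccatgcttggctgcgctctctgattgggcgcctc
MTHFD1 E-box: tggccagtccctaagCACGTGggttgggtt
MTHFD1L E-box: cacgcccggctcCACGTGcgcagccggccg
MTHFD1L response element: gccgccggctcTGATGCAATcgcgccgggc

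MTHFD1L held 1 match of each motif, and MTHFD1 held 1 E-box. MTHFD1L has 4 listed windows, and only the first was searched. The windows before PHGDH, PSAT1, MTHFD2 and SHMT1 held neither motif, which says only that these letters are not in these windows. Among all 35116 RefSeq windows of the same length, 6.34% held the E-box and 3.13% the response element.

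PHGDH (ENSG00000092621, hg38 chr1:119648411-119744226, + strand) commits 3-phosphoglycerate to serine. Its level in DMSO libraries A, B and C was 727, 739 and 782 CPM, and 753, 770 and 796 CPM in IPATA. It was 391, 363 and 386 CPM in TAZ, and 669, 656 and 619 CPM in COMBO. TAZ was lowest, COMBO lay below every DMSO library, and IPATA overlapped DMSO. PSAT1 (ENSG00000135069, chr9:78297143-78330093, + strand) carries out the transamination that follows. It stood at 800, 758 and 807 CPM in DMSO and at 560, 548 and 536 CPM in IPATA. TAZ libraries held 185, 212 and 202 CPM, and COMBO libraries 535, 522 and 534 CPM. The COMBO libraries sat just under the IPATA libraries, and both were far above TAZ. PSPH (ENSG00000146733, chr7:56011051-56051604, − strand) releases the phosphate to give serine. Its levels were 159, 151 and 141 CPM in DMSO and 92.8, 97.5 and 87.9 CPM in IPATA. They were 46.9, 43.6 and 42.2 CPM in TAZ, and 61.0, 54.4 and 56.3 CPM in COMBO. Of the serine synthesis genes, PSPH had the smallest fold between TAZ and COMBO. The pseudogene PSPHP1 had 80 to 213 counts per library against 701 to 2946 for PSPH, so reads shared between the copies leave the PSPH level uncertain to that extent.

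SHMT2 (ENSG00000182199, chr12:57229327-57234935, + strand), the mitochondrial hydroxymethyltransferase, was at 509, 516 and 560 CPM in DMSO and 507, 543 and 547 CPM in IPATA. It was at 230, 229 and 238 CPM in TAZ, and 419, 404 and 410 CPM in COMBO. IPATA overlapped DMSO, and TAZ lay lowest with COMBO between. MTHFD2 (ENSG00000065911, chr2:74198562-74217565, + strand), the mitochondrial dehydrogenase and cyclohydrolase that many tumors express and most adult tissues hardly do, was at 361, 347 and 360 CPM in DMSO. IPATA libraries held 226, 217 and 226 CPM, TAZ libraries 76.9, 82.6 and 86.1 CPM, and COMBO libraries 241, 224 and 233 CPM. IPATA and COMBO overlapped, between DMSO and TAZ. MTHFD1L (ENSG00000120254, chr6:150865549-151101887, + strand), which releases formate in mitochondria, was at 39.7, 44.4 and 41.7 CPM in DMSO and 30.6, 36.3 and 34.1 CPM in IPATA. TAZ gave 13.3, 13.4 and 13.4 CPM, and COMBO 27.8, 26.5 and 22.7 CPM. No arm overlapped another for MTHFD1L. ALDH1L2 (ENSG00000136010, chr12:105019784-105084577, − strand) was the least abundant, at 5.05, 4.35 and 5.32 CPM in DMSO and 6.08, 7.57 and 5.91 CPM in IPATA. It was at 1.21, 1.69 and 2.02 CPM in TAZ, from 18, 29 and 44 counts, and at 4.87, 4.84 and 4.35 CPM in COMBO. Here TAZ alone stood low, and COMBO overlapped DMSO.

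The 2 cytosolic genes had another order. SHMT1 (ENSG00000176974, chr17:18327860-18363563, − strand) was at 99.8, 98.6 and 107 CPM in DMSO. IPATA held 65.8, 68.7 and 74.8 CPM, TAZ 66.4, 73.8 and 64.7 CPM, and COMBO 26.8, 27.6 and 29.0 CPM. The single agents overlapped each other, and COMBO lay below all other libraries. MTHFD1 (ENSG00000100714, chr14:64388031-64463457, + strand) was at 284, 265 and 306 CPM in DMSO and 195, 201 and 215 CPM in IPATA. It was at 113, 127 and 133 CPM in TAZ, and 59.5, 64.7 and 64.1 CPM in COMBO. Each arm was separate from the others, with COMBO lowest. Opposite-strand genes overlap parts of these loci, and the strand setting of the counting is not given in the sources used here. SMCR8 at the SHMT1 locus had 897 to 1825 counts per library and ZBTB25 at the MTHFD1 locus 238 to 503. C12orf45 at the ALDH1L2 locus had 322 to 694 counts, more than ALDH1L2 itself at 18 to 111, so the ALDH1L2 level is the least certain.

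**Figure D1:**
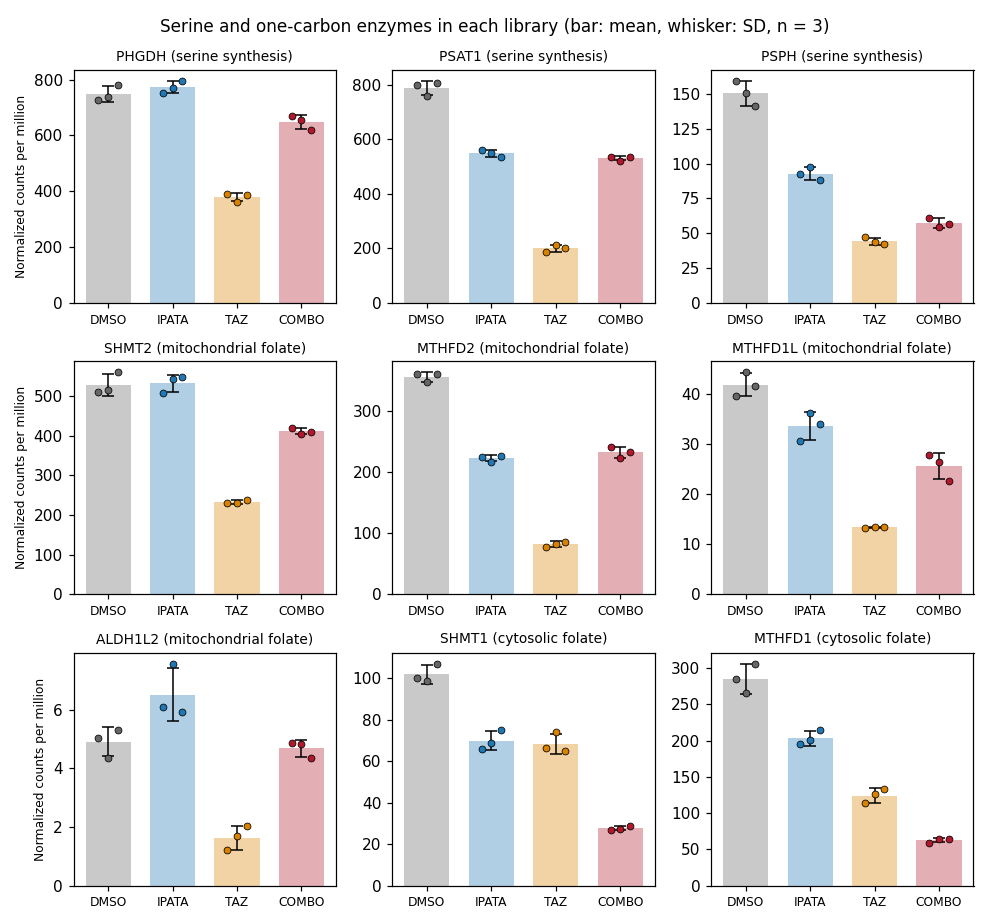
Normalized counts as CPM (y axis, linear, from 0) of the 9 enzymes in the 4 arms (x axis), with 1 point per library, bars at the mean and whiskers of 1 SD (n = 3). TAZ is the lowest arm for 7 enzymes, such as MTHFD2 at 81.9 ± 4.66 against 356 ± 7.75 in DMSO, while COMBO is the lowest for SHMT1 (27.8 ± 1.11) and MTHFD1 (62.7 ± 2.86).

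Set against gene length, as CPM per kb of the exon length in the count table, PSAT1 was the most abundant enzyme in DMSO at 360 on average, followed by SHMT2 at 109, PHGDH at 81.3 and MTHFD2 at 73.1. PSPH stood at 54.5, MTHFD1 at 30.4, SHMT1 at 14.0, MTHFD1L at 8.35 and ALDH1L2 at 0.577 CPM per kb. Neighbours in this order did not overlap across the DMSO libraries. In COMBO the order was the same except that MTHFD1L, at 5.11 CPM per kb, lay above SHMT1 at 3.82, and these libraries did not overlap either. In TAZ, MTHFD2 at 16.8 and PSPH at 16.0 CPM per kb overlapped.

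Ipatasertib alone lowered 6 of the 9 enzymes and raised none. Across all genes tested, 21.9% were lower and 20.6% higher in IPATA than in DMSO, at an adjusted p under 0.05 in edgeR's quasi-likelihood test with Benjamini-Hochberg adjustment, which gives every adjusted p below. The median log2 fold change was -0.49 over the enzymes and 0.01 over all genes. PSPH fell most, by 0.70 on the log2 scale (SE 0.06, adjusted p = 2.54e-11). MTHFD2 fell by 0.67 (SE 0.05), SHMT1 by 0.55 (SE 0.07), PSAT1 by 0.52 (SE 0.05), MTHFD1 by 0.49 (SE 0.06) and MTHFD1L by 0.32 (SE 0.09, adjusted p = 0.00365). For PHGDH the log2 difference was 0.04 with a 95% interval of -0.06 to 0.15 (adjusted p = 0.522), and for SHMT2 it was 0.01 with an interval of -0.09 to 0.12 (adjusted p = 0.891). PHGDH and SHMT2 libraries overlapped between these arms. ALDH1L2 had a log2 difference of 0.40 (95% interval 0.0046 to 0.80, adjusted p = 0.0983), with every IPATA library above every DMSO library.

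Tazemetostat alone lowered all 9 enzymes. Among all genes, 31.5% were lower and 32.6% higher in TAZ than in DMSO. The median was -1.56 over the enzymes and 0.03 over all genes on the log2 scale. No TAZ library reached the DMSO range for any enzyme, and how many of all genes were separated in this way was not counted. MTHFD2 fell by 2.12 (SE 0.06, adjusted p = 2.35e-27), which left 0.230 of its DMSO level, and PSAT1 fell by 1.98 (SE 0.05, adjusted p = 7.97e-27), which left 0.253. PSPH fell by 1.77 (SE 0.07), MTHFD1L by 1.65 (SE 0.10), ALDH1L2 by 1.56 (SE 0.22), MTHFD1 by 1.20 (SE 0.06), SHMT2 by 1.19 (SE 0.05) and PHGDH by 0.98 (SE 0.05). SHMT1 changed least, and fell by 0.58 (SE 0.07, adjusted p = 1.32e-09).

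Against IPATA, TAZ was lower for 8 of the 9 enzymes, where 25.1% of all genes were lower and 25.4% higher. The log2 difference was -1.96 for ALDH1L2 (SE 0.22), and PSAT1 had -1.46 (SE 0.05), MTHFD2 -1.44 (SE 0.06), SHMT2 -1.20 (SE 0.05) and PHGDH -1.03 (SE 0.05). SHMT1 was the enzyme not called, with a log2 difference of -0.03 and a 95% interval of -0.17 to 0.11 (adjusted p = 0.728).

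Both agents together left 8 of the 9 enzymes lower than in DMSO. Among all genes, 35.2% were lower and 38.0% higher in COMBO than in DMSO. The cytosolic enzymes were lowest of all: MTHFD1 fell by 2.19 (SE 0.07, adjusted p = 1.37e-26), to 0.220 of its DMSO level, and SHMT1 fell by 1.88 (SE 0.07, adjusted p = 2.58e-23), to 0.273. PSPH fell by 1.39 (SE 0.07), while the other called enzymes fell by less than 1 log2 unit. These were MTHFD1L by 0.71 (SE 0.09), MTHFD2 by 0.61 (SE 0.05), PSAT1 by 0.57 (SE 0.05), SHMT2 by 0.36 (SE 0.05) and PHGDH by 0.21 (SE 0.05, adjusted p = 0.000513). The call for PHGDH depends on the scaling: by library size only its log2 difference was -0.01 (adjusted p = 0.834) and by upper quartile -0.02 (adjusted p = 0.659). ALDH1L2 had a log2 difference of -0.07 (95% interval -0.47 to 0.33, adjusted p = 0.754). The median was -0.61 over the enzymes and 0.06 over all genes. By library size only the median of all genes in this comparison was 0.26 and by upper quartile 0.25, with 7574 and 7502 genes higher and 4749 and 4821 lower, against 6320 higher and 5866 lower with TMM.

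**Figure D2:**
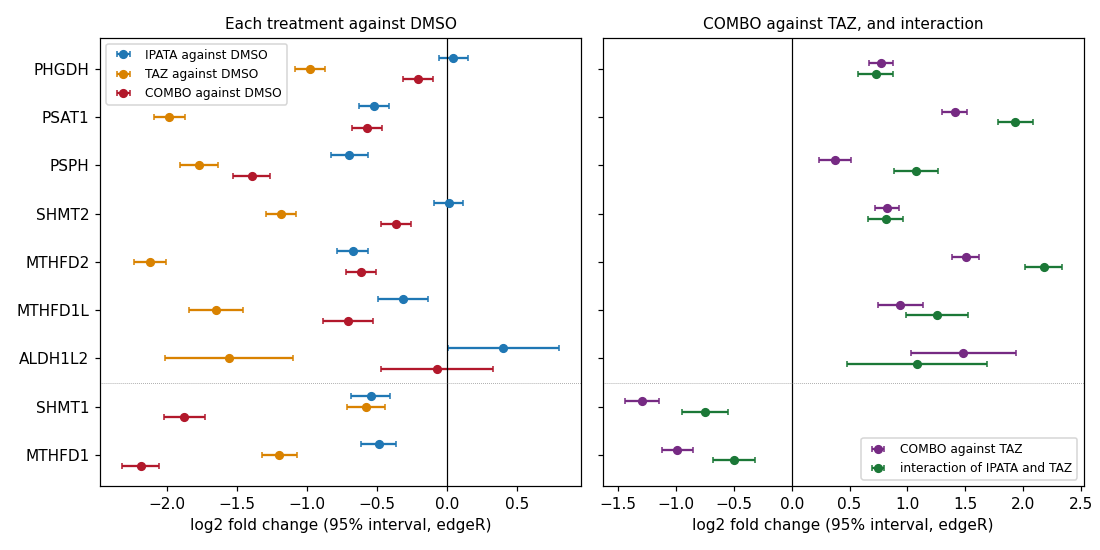
Log2 fold change (x axis) of each enzyme (y axis), with points at the edgeR estimate and bars for the 95% interval, for each arm against DMSO (left) and for COMBO against TAZ and the interaction (right). A dotted line separates the cytosolic enzymes SHMT1 and MTHFD1, which have the 2 lowest COMBO values at left (-1.88 and -2.19) and are the only enzymes left of 0 at right.

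The comparison of COMBO with TAZ asks what ipatasertib did to cells already exposed to tazemetostat. It raised 7 enzymes and lowered 2, where 21.1% of all genes were higher and 25.7% lower. MTHFD2 was 2.83-fold higher in COMBO than in TAZ (log2 1.503, SE 0.06, adjusted p = 9.88e-23), ALDH1L2 2.80-fold (log2 1.48, SE 0.22) and PSAT1 2.65-fold (log2 1.41, SE 0.05, adjusted p = 2.56e-22). MTHFD1L was 1.92-fold higher, SHMT2 1.77-fold, PHGDH 1.71-fold and PSPH 1.30-fold (adjusted p = 2.12e-05 for PSPH). Among the 9 chosen enzymes, all 7 of serine synthesis and of mitochondria were in this group. The cytosolic enzymes went the other way, SHMT1 by -1.30 (SE 0.07, adjusted p = 1.84e-17) and MTHFD1 by -0.99 (SE 0.07, adjusted p = 2.48e-15) on the log2 scale. For each of the 9 enzymes, the COMBO libraries lay all above or all below the TAZ libraries. The share of all genes separated in this way was not counted, so this describes the enzymes only. The median log2 fold change was 0.82 over the enzymes and -0.01 over all genes.

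Against IPATA, COMBO was lower for 7 enzymes, where 32.1% of all genes were lower and 32.1% higher. The largest differences were again those of MTHFD1 (log2 -1.70, SE 0.07) and SHMT1 (-1.33, SE 0.07), followed by PSPH (-0.70, SE 0.07). MTHFD1L (-0.39, SE 0.09), SHMT2 (-0.37, SE 0.05) and PHGDH (-0.25, SE 0.05) differed less. ALDH1L2 had -0.47 (SE 0.19, adjusted p = 0.0329), a call that was lost without IPATA library B (-0.37, adjusted p = 0.157), without COMBO library A (adjusted p = 0.0509), B (adjusted p = 0.0515) or C (adjusted p = 0.0913), by library size only (-0.34, adjusted p = 0.128), by upper quartile (-0.35, adjusted p = 0.114) and with at least 10 counts in every library (-0.41, adjusted p = 0.0575). PSAT1 (-0.05, 95% interval -0.16 to 0.06) and MTHFD2 (0.06, 95% interval -0.05 to 0.17) were not called. MTHFD2 was called higher by library size only (0.20, adjusted p = 0.00158), by upper quartile (0.19, adjusted p = 0.00203) and with at least 10 counts in every library (0.13, adjusted p = 0.0327).

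The interaction, COMBO minus IPATA minus TAZ plus DMSO on the log2 scale, tests whether ipatasertib had the same effect with and without tazemetostat. It was above 0 for 7 enzymes and below 0 for SHMT1 and MTHFD1, where 10.7% of all genes were above and 17.5% below 0 past the threshold. MTHFD2 had the largest value, 2.18 (95% interval 2.02 to 2.33, adjusted p = 3.51e-22), and PSAT1 had 1.93 (95% interval 1.78 to 2.09, adjusted p = 5.33e-21). Both had fallen under ipatasertib alone and rose under it after tazemetostat. MTHFD1L had 1.25, ALDH1L2 1.08 (adjusted p = 0.00525), PSPH 1.07, SHMT2 0.81 and PHGDH 0.73. SHMT1 had -0.75 (95% interval -0.95 to -0.55) and MTHFD1 -0.50 (95% interval -0.68 to -0.32, adjusted p = 3.63e-05), so ipatasertib lowered both further after tazemetostat than without it. These comparisons share arms, so they are not independent of each other.

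Mitochondrial and cytosolic enzymes of the same step were also set against each other inside each library, as a ratio of counts per kb that needs no scaling between libraries. SHMT2 to SHMT1 was 7.68, 7.87 and 7.89 in DMSO libraries A, B and C, and 11.6043, 11.8893 and 11.0005 in IPATA. It was 5.21, 4.67 and 5.53 in TAZ, and 23.5, 22.1 and 21.3 in COMBO. The arms did not overlap, with TAZ lowest and COMBO highest. On the log2 scale the means were 2.97 ± 0.02 (SD, n = 3) in DMSO and 4.48 ± 0.07 in COMBO, a difference of 1.51. The differences from DMSO were 0.56 in IPATA and -0.61 in TAZ. For MTHFD1L to MTHFD1, the ratio was 0.261, 0.313 and 0.255 in DMSO and 0.293, 0.338 and 0.297 in IPATA. It was 0.220, 0.198 and 0.189 in TAZ, and 0.872, 0.764 and 0.662 in COMBO. Again COMBO lay above and TAZ below all other libraries, while IPATA and DMSO overlapped. The log2 differences from DMSO were 1.47 in COMBO, -0.45 in TAZ and 0.17 in IPATA. In a two-sided exact permutation test of 3 libraries against 3, p was 0.1 for 5 of these 6 differences (0.12 adjusted over the 6) and 0.3 for MTHFD1L to MTHFD1 in IPATA, and 0.1 is the smallest p that 3 against 3 can give.

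**Figure D3:**
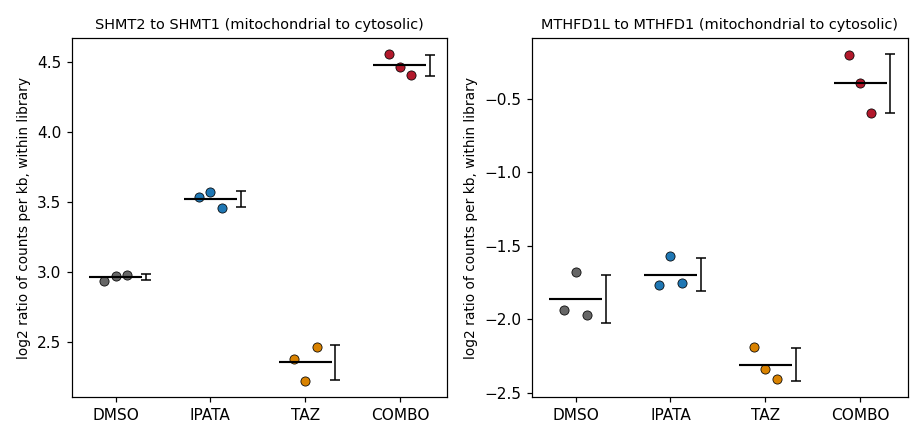
Log2 ratio of counts per kb inside each library (y axis, not from 0) in the 4 arms (x axis), for SHMT2 to SHMT1 (left) and MTHFD1L to MTHFD1 (right), with 1 point per library, a line at the mean and a bracket of 1 SD to each side (n = 3). The COMBO points are the highest in both panels (means 4.48 and -0.39) and the TAZ points the lowest (2.36 and -2.31).

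As a description over the 12 libraries, with libraries of an arm sharing their treatment, Pearson's r of log2 CPM was 0.997 between PSAT1 and MTHFD2, 0.993 between PHGDH and SHMT2, and 0.946 between SHMT1 and MTHFD1. Between SHMT1 and PHGDH it was 0.06, between SHMT1 and PSAT1 0.10, and between SHMT1 and ALDH1L2 -0.06. MTHFD1 had r of 0.369 to PHGDH, 0.375 to PSAT1, 0.451 to SHMT2 and 0.531 to MTHFD1L. PSPH had r of 0.786 to PHGDH, 0.845 to PSAT1, 0.832 to SHMT2, 0.841 to MTHFD2, 0.911 to MTHFD1L and 0.658 to ALDH1L2. To the cytosolic genes, its r was 0.783 for MTHFD1 and 0.593 for SHMT1. Among 11366 protein-coding genes with a mean of at least 1 log2 CPM, the 3 most like PHGDH were SHMT2, GPT2 (r = 0.987), a mitochondrial alanine transaminase, and SLC7A5 (r = 0.984), a transporter of large neutral amino acids. The 3 most like PSAT1 were MTHFD2, XPOT (r = 0.995), which exports tRNA from the nucleus, and the kinase gene MAPK6 (r = 0.991). The 3 most like MTHFD2 were PSAT1, MAPK6 (r = 0.992) and XPOT (r = 0.990).

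The named regulators were measured as well. ATF4 mRNA was 714 ± 10.6 CPM in DMSO, 627 ± 6.73 in IPATA, 421 ± 9.78 in TAZ and 1065 ± 32.9 in COMBO (SD, n = 3). It fell by 0.19 on the log2 scale in IPATA and by 0.76 in TAZ, and in COMBO it was higher than in DMSO by 0.58 and than in TAZ by 1.34 (adjusted p = 1.08e-22). MYC was 247 ± 7.14 CPM in DMSO, 404 ± 15.9 in IPATA, 95.4 ± 6.20 in TAZ and 198 ± 7.82 in COMBO. It rose by 0.71 in IPATA, fell by 1.37 in TAZ and by 0.32 in COMBO, and was 1.05 higher in COMBO than in TAZ. Whether either factor had a part in the enzymes' levels was not tested. NFE2L2, which encodes the NRF2 factor of the antioxidant response, was 79.4 ± 4.93 CPM in DMSO and 60.4 to 67.8 on average in the treated arms. Its fall of 0.23 in COMBO was lost by library size only (-0.03, adjusted p = 0.642) and upper quartile (-0.05, adjusted p = 0.516).

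Of 12 known ATF4 targets outside the pathway, 11 were lower in IPATA than in DMSO, where 21.9% of all genes were lower. In TAZ 9 were lower and 1 higher, where 31.5% of all genes were lower and 32.6% higher. The call for ATF3 in IPATA was lost by library size only (-0.18, adjusted p = 0.106), by upper quartile (adjusted p = 0.103), with all genes of at least 1 count (adjusted p = 0.0534), in a fit to the libraries compared alone (adjusted p = 0.0561) and without DMSO library A (adjusted p = 0.110) or B (adjusted p = 0.0752) or IPATA library A (adjusted p = 0.0654). All 12 were higher in COMBO, against DMSO as well as against TAZ, with medians of 0.52 and 1.78 on the log2 scale, where 38.0% and 21.1% of all genes were higher. In 14 alternative settings, 11 to 12 were higher in COMBO than in DMSO, and all 12 were higher than in TAZ. DDIT3, the stress transcription factor CHOP, was 27.3 ± 3.20 CPM in DMSO, 19.2 ± 0.12 in IPATA, 17.0 ± 2.42 in TAZ and 86.5 ± 1.19 in COMBO. ATF3, another stress-induced transcription factor, was 23.2 ± 2.05, 19.5 ± 0.20, 31.1 ± 2.82 and 108 ± 5.16 CPM in the same arms. This list was written with results on ATF4-responsive genes in these libraries known, so its direction is no independent evidence.

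Among 14 genes of folate use and cycling, all tested, 11 were lower and 2 higher in TAZ than in DMSO, where 31.5% of all genes were lower and 32.6% higher. In COMBO 9 were lower and 2 higher, where the shares of all genes were 35.2% and 38.0%. TYMS, the thymidylate synthase that consumes methylene-tetrahydrofolate, was 58.8 ± 1.59 CPM in DMSO, 27.5 ± 3.06 in IPATA, 25.6 ± 0.81 in TAZ and 6.82 ± 0.56 in COMBO. Its COMBO level fell by 3.11 (SE 0.10, adjusted p = 1.27e-25) on the log2 scale. GGH, which trims the glutamate tail of folates, fell by 1.93 (SE 0.09). ALDH1L1, the cytosolic counterpart of ALDH1L2, was 0.903 ± 0.19 CPM in DMSO, from 11 to 18 counts. It was 1.25 ± 0.36 CPM in IPATA, 3.71 ± 0.35 in TAZ and 3.56 ± 0.42 in COMBO. For ALDH1L1, COMBO was higher than DMSO by 1.98 on the log2 scale (SE 0.30). Against TAZ it was not called (-0.06, adjusted p = 0.863). Between TAZ and COMBO, 5 of the 14 fell and 1 rose, where 25.7% of all genes fell and 21.1% rose.

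Of 9 transporters of folate and serine, 7 were tested. In TAZ 6 were lower than in DMSO, where 31.5% of all genes were lower, and in COMBO 4 were lower and 1 higher, where 35.2% were lower and 38.0% higher. SFXN1, which carries serine into mitochondria, was 214 ± 3.99 CPM in DMSO, 146 ± 5.34 in IPATA, 112 ± 2.05 in TAZ and 68.4 ± 5.39 in COMBO, a fall by 1.64 (SE 0.06) in COMBO. The reduced folate carrier SLC19A1 fell by 1.12 (SE 0.09). SLC1A5, a transporter of neutral amino acids such as glutamine and serine, had another course, with 192 ± 6.46, 178 ± 8.48, 65.0 ± 2.59 and 231 ± 9.39 CPM in the same arms, and was higher in COMBO than in DMSO by 0.27 (SE 0.05, adjusted p = 3.96e-05). Between TAZ and COMBO, 2 of the 7 rose and 3 fell, where 21.1% of all genes rose and 25.7% fell.

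Of 11 genes of glycine cleavage and serine or glycine breakdown, 9 were tested, and in COMBO 3 were higher and 2 lower than in DMSO. These shares are not above the 38.0% of all genes that were higher and the 35.2% that were lower. GCSH, a carrier protein of the glycine cleavage system, fell by 1.87 (SE 0.13), and DLD, its dehydrogenase, which other mitochondrial complexes also use, fell by 1.05 (SE 0.05). DMGDH, the dimethylglycine dehydrogenase, rose from 1.21 ± 0.24 to 6.64 ± 1.25 CPM (log2 2.46, SE 0.29). PIPOX, which oxidizes sarcosine, rose by 1.12 (SE 0.47, adjusted p = 0.0304), a call that was lost without DMSO library C (0.83, adjusted p = 0.159) or COMBO library B (0.75, adjusted p = 0.215). Of 7 genes of the methionine cycle and transsulfuration, 5 were tested. All 5 were lower in TAZ than in DMSO, 3 were lower in COMBO, and 3 rose between TAZ and COMBO, where 31.5%, 35.2% and 21.1% of all genes did so. AHCY, which clears S-adenosylhomocysteine, was 569 ± 22.2 CPM in DMSO, 545 ± 10.8 in IPATA, 306 ± 12.5 in TAZ and 284 ± 21.5 in COMBO, and CBS, which starts transsulfuration, fell by 0.75 (SE 0.16) in COMBO.

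**Figure D4:**
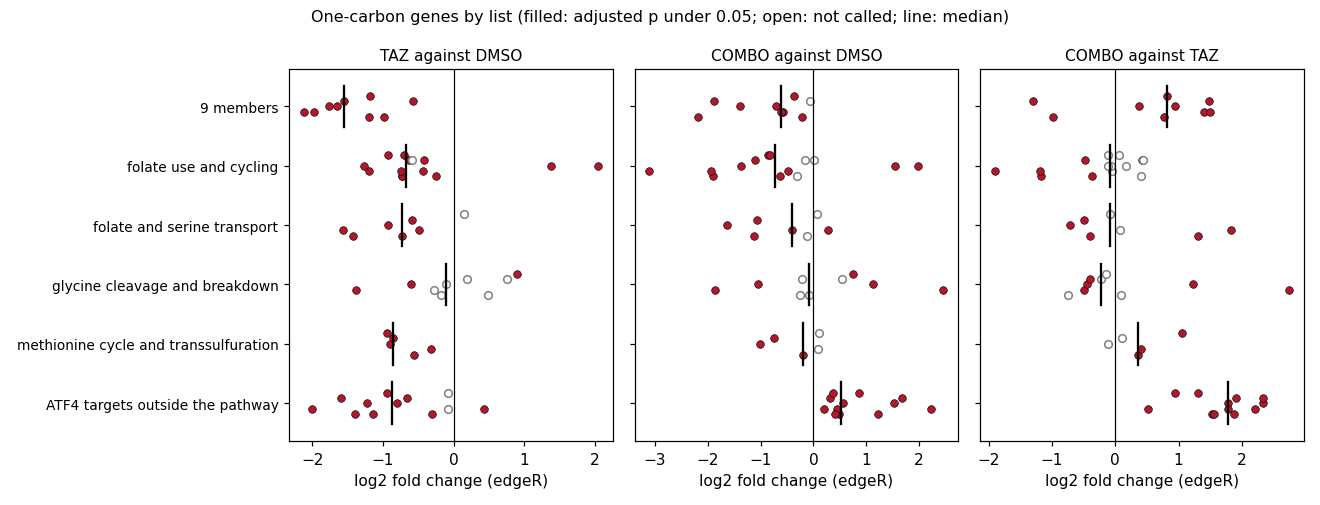
Log2 fold change (x axis) of the 9 enzymes and of 5 related gene lists (y axis) in TAZ against DMSO, COMBO against DMSO and COMBO against TAZ, with 1 point per gene (filled where the adjusted p was under 0.05), and a line at each list's median; the vertical spread of points has no meaning. The medians of the enzymes are -1.56, -0.61 and 0.82 from left to right, and those of the ATF4 targets -0.87, 0.52 and 1.78.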

How the data were processed

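PolyA RNA of 12 libraries in 4 arms was analysed. Per the labels and the study's methods, the authors mapped the reads with STAR (build hg38), and deposited the HTSeq raw counts per gene that were used here. Tool versions, annotation, strandedness and the sequencer of each library are not given in the sources used here. The authors' DESeq2-normalized table was not used. The deposited exon length per gene gave CPM per kb.

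Counts were analysed in R 4.3.3 with edgeR 4.0.16. Genes with low counts were removed by filterByExpr (at least 10 counts, 15 in total), followed by TMM scaling, 1 mean per arm over all 12 libraries, and the quasi-likelihood test with Benjamini-Hochberg adjustment over 16646 genes at 0.05. SE is the log2 fold change divided by the root of F. CPM values carry the SD over 3 libraries. The scripts were first tested on simulated data. The genes named are the 9 enzymes, 3 regulators and, in each related list, up to 2 of the highest and 2 of the lowest called genes in COMBO against DMSO with every COMBO library outside the DMSO range. Some genes that met these rules are not reported here. The enzymes and lists were chosen with earlier results of these data known. Replicate letters did not pair samples: deviations from the arm means correlated at -0.058 to 0.069 over 18 pairs of libraries, with 0 above 0.1. Within arms, chi-square per gene was 2.52 to 7.48, so libraries differed by more than sampling noise. Each library counted as a replicate, though this spread may be technical. The alternatives were DESeq2 1.42.0, RLE, upper-quartile and library-size scaling, lower and higher count filters, a fit to the arms compared alone, a term for the replicate letter, and fits without each single library. Motif searches used RefSeq windows and exons of the GENCODE annotation.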

Additional observations from a re-analysis of the deposited data

Results flagged for a closer look

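In these libraries ipatasertib had a different effect with and without tazemetostat for each of the 9 enzymes, by the interaction term of edgeR's quasi-likelihood test, which called 10.7% of all genes above and 17.5% below 0. The value, COMBO minus IPATA minus TAZ plus DMSO on the log2 scale, was 0.727 for PHGDH, 1.93 for PSAT1 and 1.07 for PSPH in serine synthesis. It was 0.813 for SHMT2, 2.18 for MTHFD2, 1.25 for MTHFD1L and 1.08 for ALDH1L2 in mitochondria, and -0.752 for SHMT1 and -0.501 for MTHFD1 in the cytosol. All 9 values kept their sign and an adjusted p under 0.05 in the 19 alternative settings. ALDH1L2 came closest to the threshold, with adjusted p-values of 0.00249 to 0.0259 over these settings. Arms of 3 libraries were too small to screen single libraries as outliers.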

How the results depend on the processing

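Of 927 recomputed values for the enzymes, 902 kept their direction and their side of the threshold, 9 lost a call, 3 gained one and 13 changed sign. The 13 were values not called in either setting. For SHMT2 in IPATA against DMSO, leaving out single libraries gave values from -0.0333 to 0.0550 (-0.0158 without DMSO library A, -0.0333 without DMSO library B, -0.0282 without IPATA library B and -0.0324 without IPATA library C). For PHGDH in the same comparison, the range was -0.000300 (without IPATA library C) to 0.0771. By library size only, upper quartile and at least 10 counts in every library, PSAT1 in COMBO against IPATA was 0.0895, 0.0780 and 0.0177, and SHMT1 in TAZ against IPATA was 0.0540, 0.0297 and 0.000538. ALDH1L2 in COMBO against DMSO was 0.124 by library size only and 0.113 by upper quartile. No count of called enzymes moved by over 1.5 times.

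The fit with a replicate block left the number of called enzymes at 6 in IPATA, 9 in TAZ and 8 in COMBO against DMSO, at 7 in COMBO and 8 in TAZ against IPATA, and at 9 in COMBO against TAZ and in the interaction. It changed no other call of an enzyme. The letters mark no known pairing.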
